A study of Homo sapiens with 2 samples.

Results

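The Eph receptors and their ephrin ligands were compared between 2 RNA-seq libraries of SNU449, an established human cell line that the cell type label calls a liver cancer cell. The 10 genes were taken by name, as EPHA2, EPHA4, EPHB2, EPHB3 and EPHB4 among the receptors and EFNA1, EFNA4, EFNA5, EFNB1 and EFNB2 among the ligands, out of 19316 genes listed in either library. All 10 were listed in at least 1 library and 9 in both. Of these genes, 8 were measured, which here means a level of at least 1 FPKM (fragments scaled to gene length and library size) in at least 1 library. Cells of both groups carried lentivirus, with an shRNA against the Wnt receptor gene FZD2 in the FZD2 shRNA group and a negative control shRNA in the other, and RNA was taken after 7 days. Each group was 1 library of 1 cell line. No spread between replicates exists, no p-value is given, and every comparison is between these 2 libraries and not between the conditions.

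Eph receptors are the largest family of receptor tyrosine kinases, and their ephrin ligands sit on the surface of neighbouring cells. A-class ephrins are held in the membrane by a lipid anchor and B-class ephrins span it, and receptors of each class bind mainly ligands of the same class, with EPHA4 and EPHB2 among the known exceptions. Contact sends a forward signal into the receptor-bearing cell and a reverse signal into the ephrin-bearing cell, and the pair sets cell repulsion, adhesion, boundary formation and vessel patterning. EPHA2 without ligand can be phosphorylated on a serine by AKT or RSK kinases, a state known for cell migration and invasion, and EPHA2 is often abundant in epithelial tumours, liver cancer among them.

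The promoter sequence before 3 of these genes is shown because, among the measured members, EPHA2 was the receptor with the lowest ratio between the libraries, EPHB4 the receptor above the control and EFNA5 the ligand furthest above it. The RefSeq promoter table (GRCh38.p14) held a window for each of the 10 genes, of which the 250 bases before the RefSeq start were searched. The authors' files use hg19, so these positions are not those of the files. Each sequence is printed 5′ to 3′ on the strand of the gene and ends before the first base of any annotated exon. EPHA2 lies at chr1:16156088-16156319, EPHB4 at chr7:100827524-100827773 and EFNA5 at chr5:107670938-107671187, all on the minus strand, and capitals mark the letters CTTTG.
EPHA2: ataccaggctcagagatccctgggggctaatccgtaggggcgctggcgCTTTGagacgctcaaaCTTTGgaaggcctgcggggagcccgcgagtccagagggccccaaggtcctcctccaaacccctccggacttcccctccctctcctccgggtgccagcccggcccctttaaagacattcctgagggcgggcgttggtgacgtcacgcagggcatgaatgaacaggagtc
EPHB4: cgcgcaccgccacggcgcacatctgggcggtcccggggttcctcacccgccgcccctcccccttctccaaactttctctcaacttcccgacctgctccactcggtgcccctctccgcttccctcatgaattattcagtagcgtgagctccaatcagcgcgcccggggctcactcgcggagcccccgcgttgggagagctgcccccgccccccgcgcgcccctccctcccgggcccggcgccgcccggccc
EFNA5: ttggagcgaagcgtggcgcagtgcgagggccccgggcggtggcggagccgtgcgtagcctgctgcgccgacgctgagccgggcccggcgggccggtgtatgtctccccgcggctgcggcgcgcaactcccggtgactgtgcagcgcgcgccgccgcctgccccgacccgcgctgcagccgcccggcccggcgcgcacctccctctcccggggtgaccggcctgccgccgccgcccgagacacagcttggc
CTTTG is the core of the motif bound by TCF/LEF factors, the DNA-binding partners of beta-catenin in Wnt signalling. It was searched on both strands and was present in the windows of 4 of the 10 genes, EPHA2, EPHA4, EFNA1 and EFNA4, or 40%. The share was 42.2% over all 27305 promoter windows and 34.4% over the 11101 windows of measured genes. The members thus stood near the background. The searched windows of EPHA4 and EFNA1 lay wholly within annotated exons. EPHA2 held it at 202 and 186 bases before the start. The AP-1 motif TGANTCA (6.60% of all windows), the E-box CACGTG (6.49%) and the hypoxia response core ACGTG (18.7%), which the E-box contains, matched none of the 10 windows. A match is a description of the letters and not a binding site. The 3 windows were rich in G and C, at 63.2% for EPHA2, 72.8% for EPHB4 and 79.6% for EFNA5.

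The libraries held 8234592 (FZD2 shRNA) and 8436870 (control) expected counts. FZD2 itself was at 15.76 FPKM in the library labelled FZD2 shRNA and 59.45 FPKM in the control, 3.61-fold lower on the scale of FPKM + 1. Many genes had an expected count that was not whole, which is called shared reads below because such a count divides reads between genes. FZD2 was among them, at 503.28 (FZD2 shRNA) and 1949.91 (control) expected counts. The 6223 measured genes with shared reads had a median log2 ratio of 0.48, and the 8154 without had one of -0.25. Mitochondrial ribosomal RNA made up 8.31% of the control library and 3.88% of the FZD2 shRNA library. Of 10 hepatocyte markers only FGB (91.67 FPKM in the control) and FGG (100.72 FPKM) were measured, the defining genes ALB and HNF4A were each listed in a single library at up to 0.05 FPKM, and APOB and TTR were listed in neither, so these defining genes do not show a hepatocyte profile. The growth protocol calls the cells prostate cancer cells, and the prostate genes KLK3, KLK2 and TMPRSS2 were listed in neither library. Markers of neural cells, which are rich in Eph receptors, summed to 185.36 FPKM in the control and 239.97 FPKM in the FZD2 shRNA library. Most of this was TUBB3 (160.13 and 201.16 FPKM), with shared reads. NES was at 15.24 and 21.86 FPKM and SOX2 at 9 and 16.14 FPKM. MAP2 and GFAP were below 1 FPKM in both, and OLIG2 was listed in neither. Leukocyte markers summed to 27.79 FPKM in the control and 94.26 FPKM in the FZD2 shRNA library, of which LYZ, with shared reads, held 12.31 and 71.47 FPKM, while CD3E and MS4A1 were listed in neither. Fibroblast markers summed to 415.49 FPKM in the control and 325.81 FPKM in the FZD2 shRNA library. Most of this was COL1A2 (306.36 and 198.48 FPKM) and COL1A1 (100.13 and 119.9 FPKM), which went opposite ways. COL3A1 and ACTA2 were at 5.17 FPKM or less in both, and PDGFRA, PDGFRB, LUM and DCN at 0.33 FPKM or less. The part of these markers in the results below was not tested.

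EPHA2, the receptor with the highest level in the control library, was at 36.42 FPKM there (95% counting interval 34.4 to 38.5) and 10.94 FPKM in the FZD2 shRNA library (9.85 to 12.1). The intervals, which cover counting error only and come from 1228.82 and 357.58 expected counts, did not overlap. In RNA from a whole culture, fewer cells with a transcript and less of it per cell cannot be told apart. EPHA2 (gene identifier 1969) was 3.13-fold lower on the scale of FPKM + 1, a log2 ratio of -1.65. The ratio of counts per library total was -1.74 on the log2 scale (-1.92 to -1.57). On FPKM + 1, the scale used for every count of genes past 2-fold, EPHA2 was the only member at least 2-fold lower, and no member was at least 2-fold higher. Of all 14377 measured genes 7.41% were at least 2-fold lower and 15.2% at least 2-fold higher. A log2 ratio at or below that of EPHA2 was found for 149 measured genes, itself included, or 1.04%.

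EPHA2 had shared reads. Among the 8154 measured genes without shared reads, 112 (1.37%) had a ratio at or below that of EPHA2. RefSeq lists an antisense gene, EPHA2-AS1, that overlaps EPHA2, and neither library listed it. Whether reads were counted by strand is unstated in the labels, so reads of such a gene cannot be told apart from those of EPHA2. Without genes that had shared reads, EPHA2 left the comparison and 0 members remained past 2-fold in either direction.

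EPHB4, the receptor for EFNB2 in the pairing that separates arteries from veins, was at 11.46 FPKM in the control library and 13.56 FPKM in the FZD2 shRNA library. The counting intervals were 10.4 to 12.6 and 12.4 to 14.8 and overlapped slightly. Its count ratio was 0.24 on the log2 scale (0.05 to 0.43), so the FZD2 shRNA library was higher by more than counting error but by far less than 2-fold. EPHB4 transcripts had a GC content of 62.6%. With the trend by GC content described below taken out, its log2 ratio on FPKM + 1 was 0.11, against 0.22 without. EPHB2, a receptor known from axon guidance and from cell sorting along the intestinal crypt, was at 8.16 FPKM in the control and 7.83 FPKM in the FZD2 shRNA library. Its count ratio was -0.08 (-0.22 to 0.07), an interval that holds no difference and reaches at most a small one. EPHB2 also had shared reads. The 2 B-class receptors thus stood near the control while EPHA2 stood well below it.

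EPHA4 and EPHB3 were not measured. EPHA4, a receptor that binds ligands of both classes, was at 0.09 FPKM in the control and 0.11 FPKM in the FZD2 shRNA library, from 5 and 6 counts. EPHB3, a relative of EPHB2, had 1 count in the FZD2 shRNA library and was unlisted in the control, where a count of 0 allows up to 3 counts or 3.56e-05% of the library. A difference in either gene was not detectable at this depth.

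**Figure D1:**
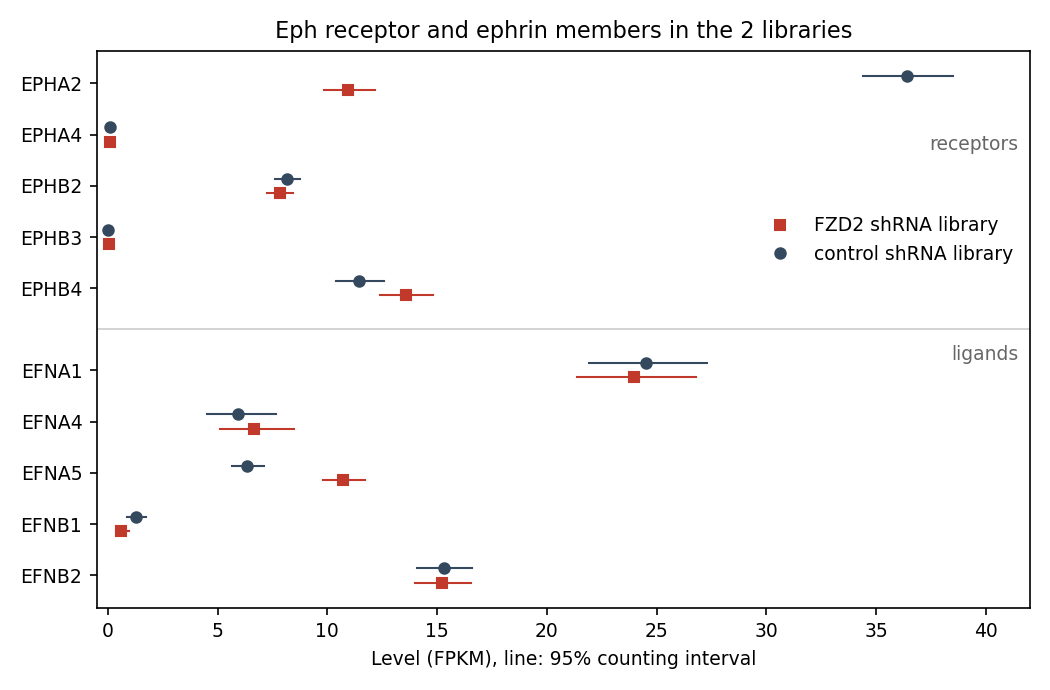
Level of each of the 10 genes in FPKM (horizontal axis) in the FZD2 shRNA library (red squares) and the control shRNA library (dark circles), 1 library each, with 95% counting intervals as lines. EPHA2 at 36.42 and 10.94 FPKM shows the widest gap, EFNA5 is higher in the FZD2 shRNA library, and EPHA4 and EPHB3 lie near 0.

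The ligands were nearer to the control than EPHA2 was. EFNA1, the A-class ephrin best known as a ligand of EPHA2, was at 24.52 FPKM in the control (21.9 to 27.3) and 23.97 FPKM in the FZD2 shRNA library (21.4 to 26.8). Its count ratio was -0.07 on the log2 scale (-0.30 to 0.16), and the intervals of the levels overlapped almost fully. EFNA5, a ligand that guides axons in the visual system and can also bind EPHB2, was at 6.36 FPKM in the control (5.65 to 7.13) and 10.73 FPKM in the FZD2 shRNA library (9.79 to 11.7). It was 1.59-fold higher on the scale of FPKM + 1, with a count ratio of 0.75 (0.54 to 0.97) from 478 counts against 291. EFNA5 was the measured ligand furthest above the control among the members and did not reach 2-fold. EFNA4, another A-class ligand, was at 5.93 FPKM in the control and 6.64 FPKM in the FZD2 shRNA library, and its 58 and 63 counts left a wide interval of the count ratio, -0.38 to 0.69. RefSeq lists a readthrough gene that joins EFNA4 and EFNA3, which neither library listed.

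Among the B-class ligands, EFNB2, the arterial partner of EPHB4, was at 15.30 FPKM in the control and 15.22 FPKM in the FZD2 shRNA library. Its count ratio was -0.01 on the log2 scale (-0.18 to 0.16). EFNB1, a ligand known from craniofacial development, was at 1.26 FPKM in the control (0.882 to 1.74) and 0.61 FPKM in the FZD2 shRNA library (0.355 to 0.977). Its 36 and 17 counts gave a count ratio of -1.05 (-1.97 to -0.18), which is past 2-fold on counts, against a log2 ratio of -0.49 on FPKM + 1. EFNB1 passed the minimum of 1 FPKM through the control library alone, so its direction was favoured by that minimum and is given as a value only.

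By the counting interval, 2 members were lower (EPHA2, and EFNB1 with the limit just given) and 2 higher (EPHB4 and EFNA5). That rule called 36.8% of all measured genes lower and 35.5% higher. The median log2 ratio of the measured members was -0.02, and that of all measured genes was -0.00. None of the 5 ligands had shared reads.

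The rest of the family was examined by the same measures. Of the 22 Eph and ephrin genes, 11 were measured, 9 were listed below 1 FPKM and 2 (EPHA8 and EPHB1) were listed in neither library. EPHA10, a receptor whose kinase domain is thought to be inactive, was at 1.73 FPKM in the control (1.22 to 2.37) and 17.36 FPKM in the FZD2 shRNA library (15.5 to 19.4). Its log2 ratio on FPKM + 1 was 2.75 and its count ratio was 3.03 (2.54 to 3.55), from 301.8 counts against 38.08. EPHA10 therefore ran opposite to EPHA2 and passed EPHA2 in the FZD2 shRNA library. It had shared reads, and the length the authors used for it was 2103.48 bases in the FZD2 shRNA library and 2586.1 bases in the control. Genes with shared reads were more often at least 2-fold higher (1846 of 6223) than those without (342 of 8154), and the part of shared reads in the EPHA10 value was not tested.

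EFNA2, an A-class ligand known from brain wiring, was at 2.42 FPKM in the control and 5.93 FPKM in the FZD2 shRNA library, with a log2 ratio of 1.02 and a count ratio of 1.29 (0.77 to 1.83). With a pseudocount of 5 its log2 ratio was 0.56, short of 2-fold. EFNA3, a further A-class ligand, was at 4.31 FPKM in the control and 7.29 FPKM in the FZD2 shRNA library, with a count ratio of 0.75 (0.30 to 1.22). Neither had shared reads. Of the 11 measured family genes 1 was at least 2-fold lower and 2 were at least 2-fold higher, near the shares of 7.41% and 15.2% over all measured genes. Below 1 FPKM in both libraries, EPHA5 had 60 counts in the control against 21, and EPHA3 was at 0.18 and 0.60 FPKM. EPHA6 was at 0.46 FPKM in the control and 0.28 FPKM in the FZD2 shRNA library. EPHA1 and EPHA7 were each listed in a single library at up to 0.04 FPKM, EPHB6 was at 0.04 FPKM or less in both, and EFNB3 was at 0.14 and 0.07 FPKM. The antisense gene EPHA1-AS1, with shared reads, was at 0.67 FPKM in the control and 3.61 FPKM in the FZD2 shRNA library.

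**Figure D2:**
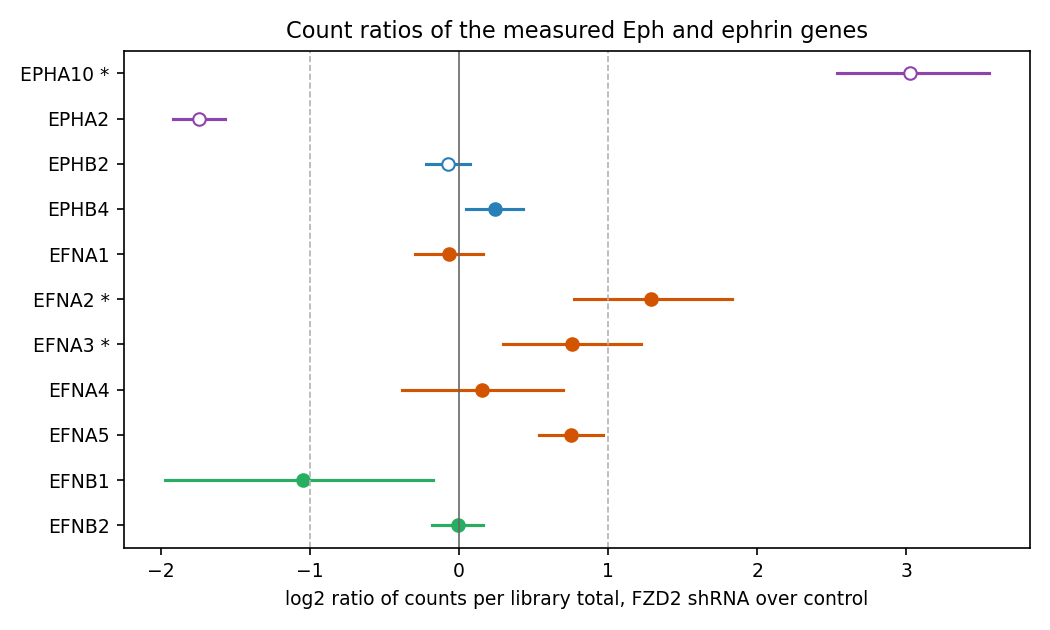
Ratio of counts per library total on the log2 scale (horizontal axis), FZD2 shRNA over control, for the 11 measured Eph and ephrin genes, with 95% counting intervals and dashed lines at 2-fold. Open symbols are genes with shared reads and asterisks mark family genes outside the 10. EPHA10 at 3.03 and EPHA2 at -1.74 stand furthest apart.

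Because FPKM is per length, levels were ranked within each library. In the control the order ran EPHA2, EFNA1, EFNB2, EPHB4, EPHB2, EFNA5, EFNA4 and EFNB1, and of these neighbours only EFNA5 and EFNA4 had overlapping counting intervals. In the FZD2 shRNA library the order ran EFNA1, EFNB2, EPHB4, EPHA2, EFNA5, EPHB2, EFNA4 and EFNB1. There the neighbours EFNB2 and EPHB4, EPHA2 and EFNA5, and EPHB2 and EFNA4 could not be separated by their counting intervals. EPHA2 was first in the control and below EFNA1, EFNB2 and EPHB4 in the FZD2 shRNA library, level with EFNA5.

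The summed level of all Eph receptors was 59.45 FPKM in the control and 51.09 FPKM in the FZD2 shRNA library, and that of all ephrins was 60.24 and 70.46 FPKM. EPHA2 made up 61.3% of the summed Eph level in the control and 21.4% in the FZD2 shRNA library, and EPHA10 made up 2.91% and 34.0%. EPHB4 held 19.3% and 26.5%. The summed A-class receptors were at 39.79 and 29.64 FPKM, a log2 ratio of -0.42. Without EPHA10, a gene left out after its value was seen, they were at 38.06 and 12.28 FPKM, a log2 ratio of -1.63. The B-class receptors were at 19.66 and 21.45 FPKM. Among ligands the A class was at 43.54 and 54.56 FPKM and the B class at 16.7 and 15.9 FPKM, of which EFNB2 held 91.6% and 95.7%.

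The level of receptors relative to ligands differed between the libraries. For all Eph over all ephrin genes it was 0.987 in the control and 0.725 in the FZD2 shRNA library. For the members, which leave out EPHA10, it was 1.05 and 0.568. For EPHA over EFNA genes it was 0.914 and 0.543, and 0.874 and 0.225 without EPHA10. For EPHB over EFNB genes it was 1.18 and 1.35. These are ratios of RNA levels and not of protein on the cell surface.

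**Figure D3:**
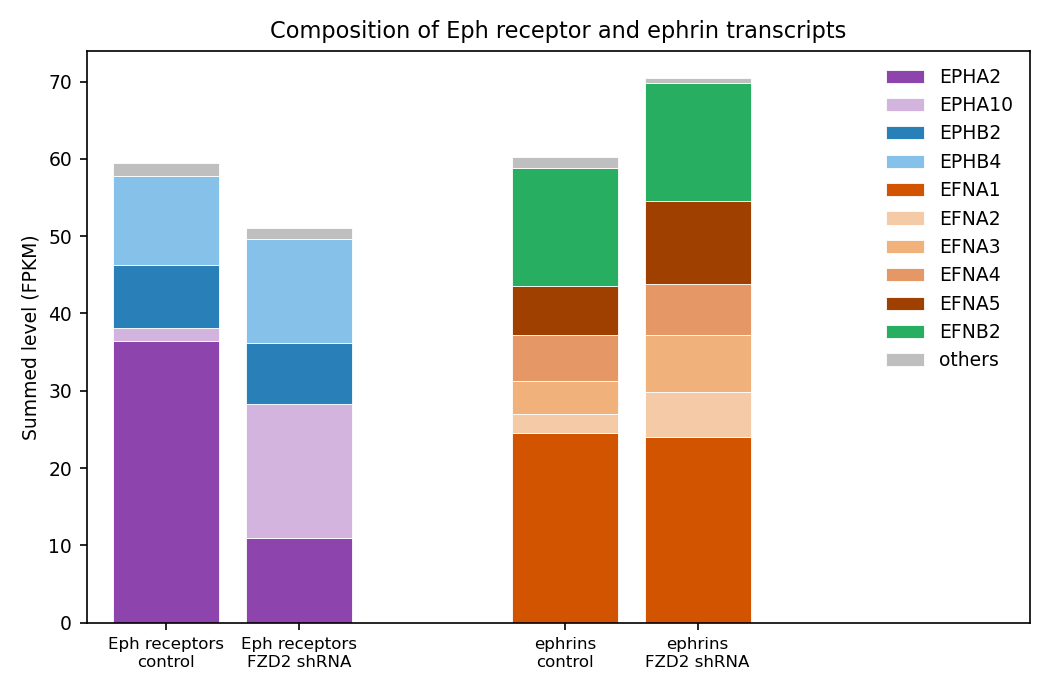
Summed level in FPKM (vertical axis, from 0) of all Eph receptor genes and all ephrin genes in each library, stacked by gene, with the remaining genes of each class in grey. EPHA2 fills 61.3% of the receptor bar in the control and 21.4% in the FZD2 shRNA library, where EPHA10 fills 34.0%.

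Ratios of 1 gene to another within a library do not depend on library scaling. EPHA2 to EFNA1 was 1.49 in the control and 0.456 in the FZD2 shRNA library. On counts the ratio was 3.19-fold lower in the FZD2 shRNA library (counting interval 2.61 to 3.90). EPHA2 to EFNA5 was 5.73 and 1.02, a 5.63-fold lower ratio on counts (4.65 to 6.83), which was the widest gap among the pairs examined. Against the B-class receptors, EPHA2 to EPHB2 was 3.18-fold lower (2.72 to 3.73) and EPHA2 to EPHB4 was 3.95-fold lower (3.31 to 4.73).

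Pairs of B-class receptors with EFNB2 stood closer to the control. EPHB4 to EFNB2 was 0.749 in the control and 0.891 in the FZD2 shRNA library, and the count ratio of the libraries was 1.19 (0.995 to 1.42), an interval that takes in no difference. EPHB2 to EFNB2 was 0.533 and 0.514, with a count ratio of 0.956 (0.817 to 1.12). With the GC trend described below taken out, the log2 ratio on FPKM + 1 was 0.47 for EFNB2, 0.11 for EPHB4 and 0.01 for EPHB2. These pairs therefore stood less close to the control under that setting. The receptors EPHB2 and EPHB4 differed between themselves, with a ratio of 0.712 in the control and 0.577 in the FZD2 shRNA library and a count ratio of 0.805 (0.680 to 0.952). EFNA5 to EFNA1 was 0.259 and 0.448, with a count ratio of 1.77 (1.42 to 2.20). The A-class ligands therefore also differed among themselves.

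The ratio between the libraries went with the GC content of transcripts over all genes without shared reads. The median log2 ratio was -0.53 for 1580 genes at 40 to 45% GC, -0.07 for 1377 genes at 55 to 60% and 0.13 for 1600 genes at 60% or more. EPHA2, at 60.3% GC, had a log2 ratio of -1.65 where the median was above 0, and -1.68 with the GC trend taken out. EFNA5 had a GC content of 43.2%. With the trend taken out its log2 ratio was 1.18, which is past 2-fold, against 0.67 without. EFNB2, at 46.2%, moved from -0.01 to 0.47. EFNA2, at 71.1%, moved from 1.02 to 0.60 and was no longer past 2-fold. The cause of the GC trend was not tested.

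**Figure D4:**
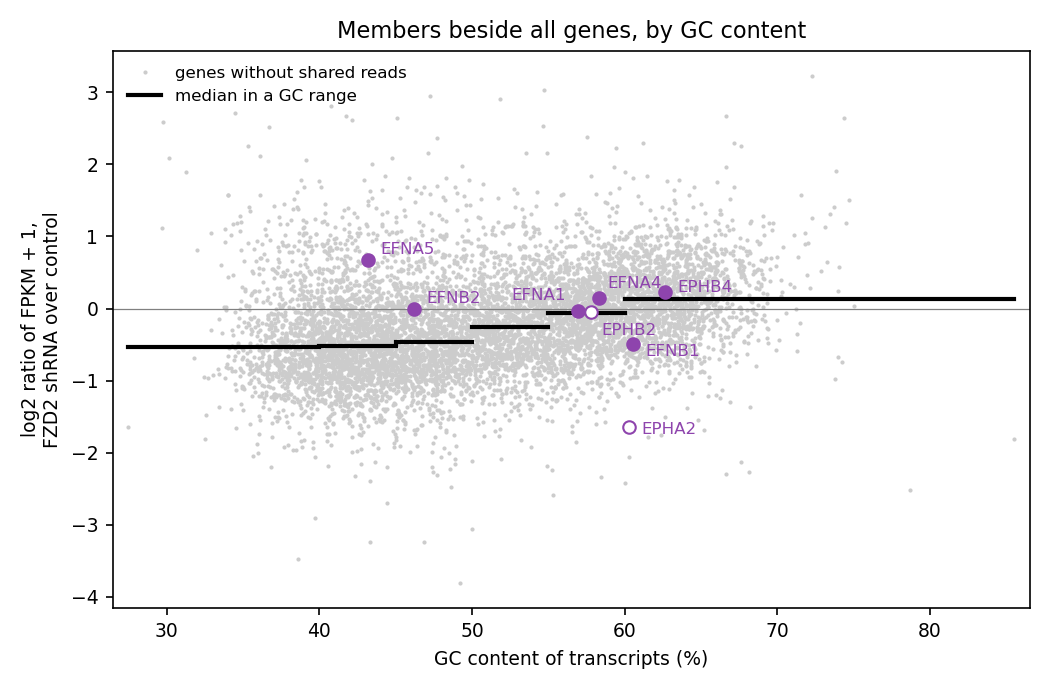
The log2 ratio of FPKM + 1 (vertical axis), FZD2 shRNA over control, against the GC content of transcripts in percent (horizontal axis), for genes without shared reads (grey) with the median in each GC range (black bars) and the measured members (purple, open where reads were shared). EPHA2 lies below the bar of its GC range and EFNA5 above its own.

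The genes whose pair of values lay nearest to those of EPHA2, by distance on log2(FPKM + 1) over only 2 libraries and among genes without shared reads, were UBE2N, GNPDA1 and PHF5A. UBE2N was at 33.16 FPKM in the control and 11.13 FPKM in the FZD2 shRNA library, at a distance of 0.133. GNPDA1 was at 34 and 11.97 FPKM and PHF5A at 39.23 and 11.91 FPKM. With 2 libraries such likeness describes 2 numbers per gene.

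Genes that carry, modify or compete with Eph signals were taken in 5 lists of 116 genes, of which 87 were measured. Of these 14 were at least 2-fold lower and 6 at least 2-fold higher, where 7.41% and 15.2% of all measured genes were. The median log2 ratio was -0.32 against -0.00 over all measured genes. Of the 87 genes, 32 had shared reads. Among the list genes without shared reads 12 were lower and 1 was higher, where 835 and 342 of all 8154 such genes were. Their median was -0.43 against -0.25 over all such genes. With the GC trend described above taken out, 4 of the 14 lower genes stayed past 2-fold, ABL1, ADAM10, MMP14 and ARHGEF16, the last of which passed the minimum of 1 FPKM through the control library alone. With a pseudocount of 5 those past 2-fold were PTK2, ADAM10, PTPN1 and ITGB1, so ADAM10 alone was past it under both.

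Of the cytoplasmic signalling genes that act below Eph receptors, 32 were measured, 5 were lower (against 7.41% of all measured genes), 2 were higher (against 15.2%) and the median was -0.22. PTK2, the focal adhesion kinase, was at 38.12 FPKM in the control and 13.79 FPKM in the FZD2 shRNA library, with shared reads. VAV3, a guanine nucleotide exchange factor, was at 16.55 and 5.79 FPKM. The related kinases ABL1 and ABL2 went opposite ways, ABL1 at 16.31 and 6.37 FPKM and ABL2, with shared reads, at 7.64 and 20.26 FPKM.

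Of 16 genes for shedding, dephosphorylation and turnover, all measured, 3 were lower (against 7.41% of all measured genes), 1 was higher (against 15.2%) and the median was -0.49. ADAM10, the metalloprotease that cleaves A-class ephrins after they bind their receptor, was at 36.61 FPKM in the control and 8.61 FPKM in the FZD2 shRNA library, a log2 ratio of -1.97. PTPN1, a phosphatase that acts on Eph receptors, was at 36.96 and 15.60 FPKM. MMP14, a membrane metalloprotease that can cleave EPHA2, was at 7.78 and 3.26 FPKM. PSENEN, a subunit of gamma-secretase, was at 30.54 and 63.44 FPKM, with shared reads.

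Among 13 measured partners of EPHA2 in serine and invasion signalling, 4 were lower (against 7.41% of all measured genes), 0 were higher (against 15.2%) and the median was -0.32. DOCK1, an activator of RAC1, was at 11.15 FPKM in the control and 3.60 FPKM in the FZD2 shRNA library. DOCK4, its relative, was at 4.52 and 1.75 FPKM, and ARHGEF16, an exchange factor that binds EPHA2, was at 2.41 and 0.66 FPKM, from 60 and 16 counts. ARHGEF16 was measured only through its control value, so the minimum favoured a lower value. It is among the 4 lower genes here and the 14 over all lists, and is no support for either count. ITGB1, the common integrin beta subunit, was at 585.33 and 238.35 FPKM, with shared reads.

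Of the 9 measured partners in reverse signalling by B-class ephrins, 1 was lower and 0 were higher, beside 7.41% and 15.2% of all measured genes, and the median was -0.40. PTPN13, a phosphatase with PDZ domains, was at 9.91 FPKM in the control and 3.29 FPKM in the FZD2 shRNA library. SDCBP and TJP1, both with PDZ domains, had log2 ratios of -0.86 and -0.79, and STAT3 had a log2 ratio of 0.64 with shared reads.

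Of 39 other receptor tyrosine kinase genes 17 were measured, 1 was lower and 3 were higher, near the shares of 7.41% and 15.2% over all measured genes, and the median was -0.19. EGFR, the epidermal growth factor receptor, was the single lower gene, at 15.88 FPKM in the control and 6.26 FPKM in the FZD2 shRNA library, a log2 ratio of -1.22. FGFR2, ERBB3 and FLT1 were higher, at 2.61, 1.89 and 1.62 on the log2 scale, and all 3 had shared reads, as EPHA10 did. The length used for ERBB3 was 3286.44 bases in the control and 1996.03 bases in the FZD2 shRNA library, and its count ratio was lower, at 1.28 (1.06 to 1.52). FLT1 is also an endothelial gene. Of 8 endothelial markers PECAM1 and EMCN alone were measured, the markers summed to 1.02 FPKM in the control and 3.79 FPKM in the FZD2 shRNA library, and the defining genes VWF and TIE1 were listed in neither. Their part in the FLT1 value was not tested.

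**Figure D5:**
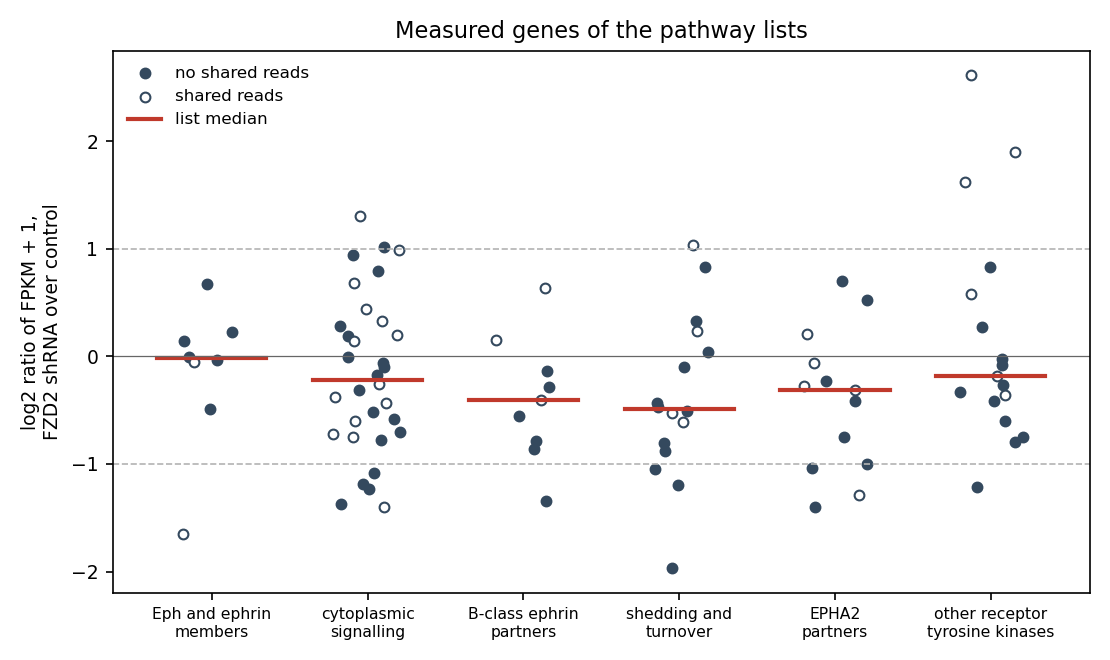
The log2 ratio of FPKM + 1 (vertical axis), FZD2 shRNA over control, for each measured gene of the Eph and ephrin members and of the 5 lists (horizontal axis), with the list median as a red bar, dashed lines at 2-fold and open symbols for shared reads. EPHA2 is the low point of the members at -1.65, ADAM10 the lowest of all lists at -1.97, and the 3 highest receptor tyrosine kinases all had shared reads.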

How the data were processed

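RNA was measured in 2 libraries of SNU449, 1 per group. Oligo(dT) beads selected the RNA, which was fragmented and primed at random, per the labels' protocols, and the sequencer was a BGISEQ-500. Bowtie2, HISAT and hg19 are named in the submitters' processing notes. For the counting program, annotation and strandedness, the sources used here give no statement. Each gene has an expected count, an FPKM and a length, per the file headers. As deposited, expected counts carry no normalization. The FPKM values were scaled by the authors to length and library size. Unlisted genes were set to 0.

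Entrez identifiers were matched to RefSeq symbols, and 53 measured genes had none. Ratios are log2 of FPKM with a pseudocount of 1, FZD2 shRNA over control, which understates differences of low genes. Intervals (95%, exact, conditional binomial or Poisson, on rounded counts) cover counting error only, since amplified reads are not independent molecules. They were tested on simulated Poisson counts. Those counts hold neither amplified nor shared reads, so the test cannot show how well the intervals hold for these data. A count was taken as whole within 0.001. GC content came from GENCODE 29 transcripts for 96.1% of measured genes, with a lowess trend (fraction 0.3). TMM factors were from edgeR 4.0.16 in R 4.3.3, with Python 3.11.15, SciPy 1.17.1 and statsmodels 0.14.6 for the rest.

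The members and the gene lists were chosen with earlier results of these data known. The named genes were all Eph and ephrin genes, FZD2, in each list the 4 measured genes furthest from a log2 ratio of 0, and the 3 nearest to EPHA2. The marker genes named, the overlapping antisense and readthrough genes beside members and the pairs of genes set against each other were named in addition.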

Additional observations from a re-analysis of the deposited data

How the results depend on the processing

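EPHA2 was past 2-fold lower under each of the 8 scalings and pseudocounts, with log2 ratios from -1.73 to -1.38, the latter with a pseudocount of 5. EPHA10 was past 2-fold higher under each of the 8, from 1.73 to 3.25. The small ratios of EPHB2, EFNA1 and EFNB2 changed sign between settings (-0.07 to 0.09, -0.07 to 0.12 and -0.01 to 0.47), so no direction is given for them. EFNB1 ranged from -0.94 to -0.16. Scaling to TPM moved the median of all genes to 0.14 and taking out the GC trend to 0.23. The cause of the changes below was not tested.

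Members lower numbered 0 at 4-fold, 2 by the counting interval and 0 without shared reads, and members higher numbered 1 with the GC trend out, 1 at 1.5-fold and 2 by the interval. Family genes lower numbered 0 at 4-fold, 2 by the interval and 0 without shared reads, and family genes higher 1 with a pseudocount of 5, 4 at 1.5-fold, 1 at 4-fold, 5 by the interval and 1 without shared reads. List genes lower (14) numbered 4 with a pseudocount of 5, 4 with the GC trend out, 28 at 1.5-fold, 0 at 4-fold and 48 by the interval. List genes higher (6) numbered 3 with a pseudocount of 5, 10 in TPM, 14 at 1.5-fold, 1 at 4-fold, 21 by the interval and 1 without shared reads. All genes lower (1066) numbered 1749 with a pseudocount of 0.1, 301 with 5, 348 with the GC trend out, 3117 at 1.5-fold, 59 at 4-fold and 5288 by the interval. All genes higher (2188) numbered 941 with a pseudocount of 5, 3747 at 1.5-fold, 382 at 4-fold, 5111 by the interval and 342 without shared reads. The summed EPHA level had log2 ratios of -0.27 in TPM, -0.89 in CPM and -1.63 without EPHA10, a choice made after seeing the data, EPHB 0.28 in TPM, and EFNA 0.48 in TPM and 0.46 in CPM.

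No paired analysis was possible because each group had 1 library, and for the same reason no replicate was left out. Depth limited EPHA4, EPHB3 and EFNB1, which rested on at most 36 counts in a library.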
